A study of Mus musculus with 6 samples.

Results

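The genes described here are the 9 that encode lysyl oxidases and the enzymes that trim fibrillar procollagens: Lox, Loxl1, Loxl2, Loxl3 and Loxl4, the procollagen C-proteinases Bmp1 and Tll1, and the proteinase enhancers Pcolce and Pcolce2. They were taken by name from a table of 22483 genes, and all 9 were found in it. Stromal cells of Swiss white mice, 8 to 12 weeks old, had been sorted after removal of cells that carried CD45, CD31 or CD11b, which mark leukocytes, endothelium and myeloid cells. The rest was split into 3 sorts by surface CD140a, the product of Pdgfra, and Sca1, the product of Ly6a. The sorts were CD140a(-)/Sca1(+), CD140a(+)/Sca1(-) and, carrying both markers, CD140a(+)/Sca1(+). The injured muscle had received 20 uM cardiotoxin, a venom toxin that destroys muscle fibers, 3 days earlier, and the control muscle was the untreated muscle of the other leg. The labels name no transgene or deletion in either group and name the tibialis anterior, but for acute injury the study's Results name gastrocnemius and soleus instead, so the muscle is uncertain. Acute injury was made in 5 mice, and how many of them went into each library is not given in the sources used here.

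Procollagens leave the cell with extensions at both ends. BMP1, also called procollagen C-proteinase, and its relative tolloid-like 1 remove the C-terminal extension, and PCOLCE and PCOLCE2 bind that extension and speed the cut. Trimmed collagen then assembles into fibrils, and lysyl oxidases, which are secreted enzymes that need copper, oxidize lysines so that neighboring molecules cross-link. LOX itself is made as an inactive proenzyme, and BMP1 activates it. Fibroblast-like stromal cells are the main makers of fibrillar collagen in skeletal muscle.

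Each of the 3 sorts had 1 library in each state, 6 in all, so no group has a replicate, and injury was tested over the 3 sorts as pairs. P-values and SE therefore rest on the spread of the change between sorts, not between animals. For each gene this spread was drawn toward that of all genes tested (degrees of freedom 4.11 prior and 2 residual). Reads came from the 3' end of each transcript. The deposited log2 values were turned back into normalized counts, which are reads divided by a size factor per library, and estimated depth was 2094353 to 14173590 reads. Injured CD140a(+)/Sca1(-) cells gave a library that differed from the rest, with no read for 69.1% of the genes, while the range over the other 5 libraries was 28.2% to 39.0%. It also had none for 928 (17.6%) of the 5274 genes that reached 20 normalized counts in every one of the others, and 2 of the 9 genes, Loxl4 and Pcolce, were at 0 there. By the study's account, sorting enriched control CD140a(+)/Sca1(+) cells the least, and the part of this in the ratios below was not tested. The sort markers only partly followed the labels. Pdgfra had 335, 203 and 1240 normalized counts in injured CD140a(-)/Sca1(+), CD140a(+)/Sca1(-) and CD140a(+)/Sca1(+) cells, and 211, 33.6 and 26.3 in the control cells in the same order, so the control sort labelled CD140a(-) had the most. Ly6a had 1177, 2.09 and 4099 normalized counts in injured cells, against 5850, 70.4 and 253 in control cells, and was lowest in the Sca1(-) sort of each state. The same order of sorts is kept for the values of each state below.

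Sequence was available in RefSeq's promoter table (assembly GRCm38.p6) for 4 of the 9 genes, Pcolce, Pcolce2, Loxl4 and Tll1. The windows of the pair of enhancers are shown because Pcolce2 was higher and Pcolce lower in injured than in control CD140a(+)/Sca1(-) cells. The Pcolce value is a 0 in the library that lacked reads for many genes. In that sort 29.4% of all genes were at least 3-fold lower after injury. With quantile normalization and with library medians set equal, Pcolce was not 3-fold lower. Each window runs from 250 bases before to 50 bases after the start of the gene, 5' to 3' on the gene's strand, and capitals mark matches to the GC box GGGCGG on either strand. The Pcolce window is chr5:137611355-137611654 on the minus strand, inside the gene as GENCODE annotates it, and the Pcolce2 window is chr9:95637378-95637677 on the plus strand.
Pcolce: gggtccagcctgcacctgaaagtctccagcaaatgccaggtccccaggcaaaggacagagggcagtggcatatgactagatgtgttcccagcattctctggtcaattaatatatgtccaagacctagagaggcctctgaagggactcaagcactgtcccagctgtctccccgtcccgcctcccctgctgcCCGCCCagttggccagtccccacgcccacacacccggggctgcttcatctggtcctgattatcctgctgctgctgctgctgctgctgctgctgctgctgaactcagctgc
Pcolce2: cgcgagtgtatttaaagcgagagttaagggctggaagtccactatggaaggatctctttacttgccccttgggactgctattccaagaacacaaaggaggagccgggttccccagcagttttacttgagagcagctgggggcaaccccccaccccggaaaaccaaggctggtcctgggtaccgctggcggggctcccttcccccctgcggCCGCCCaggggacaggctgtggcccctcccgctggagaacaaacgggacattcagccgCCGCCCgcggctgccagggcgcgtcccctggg
The Pcolce window was 59.3% G or C with 5 CG pairs, and the Pcolce2 window was 63.7% G or C with 17 CG pairs, while the median of all 32851 windows was 52.7%. Pcolce had 1 GC box, at -60 from the start, and Pcolce2 had 2, at -40 and +19. Of all windows, 35.7% hold this motif. Neither window, on either strand, held the TATA box TATAAA, which 13.6% of windows hold. The SMAD element CAGAC, in 49.6% of windows, was also missing from both. So was the TEAD site CATTCC, which 14.7% of windows hold. The hypoxia response core ACGTG (19.6% of windows) and the AP-1 site TGANTCA (7.81% of windows) were searched too and had no match. A match is a description of letters and was not tested as a binding site.

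After cardiotoxin, the genes for the founding lysyl oxidase and for the main C-proteinase were many times higher in every sort. Lox, Loxl1, Loxl3, Bmp1 and Pcolce2 rose, which here means a p under 0.05 and a change of at least 3-fold in limma fitted over 15532 genes with the sort as a block. These are 5 of 9 genes, against 2.3% of all genes tested, and 0 of the 9 fell, against 3.46% of all genes. Without the injured CD140a(+)/Sca1(-) library 6 of the 9 rose, Pcolce being added, and 456 of all genes did, against 357 with every library. Without the CD140a(+)/Sca1(+) pair 3 did, Lox, Loxl1 and Bmp1, and 183 of all genes. The count was 8 with library medians set equal, where 1218 of all genes rose. With a p under 0.01 it was 3, again Lox, Loxl1 and Bmp1, against 0.927% of all genes. The median change of the 9 was 2.18 on the log2 scale of the deposited values, while the median of all genes tested was -0.33. On this scale a low count moves less than its ratio does. No gene of the whole table had an adjusted p under 0.05 in limma, where 1241 had an unadjusted p under 0.05, and the lowest adjusted p among the 9 was 0.26, for Lox. Alternative settings of limma gave between 0 and 177 genes with an adjusted p under 0.05. The 5 genes that rose are also those whose 3 injured libraries all stood above all 3 control libraries, which held for 4.18% of all genes. In sorted bulk RNA, more cells of a type and more RNA per cell cannot be told apart.

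**Figure D1:**
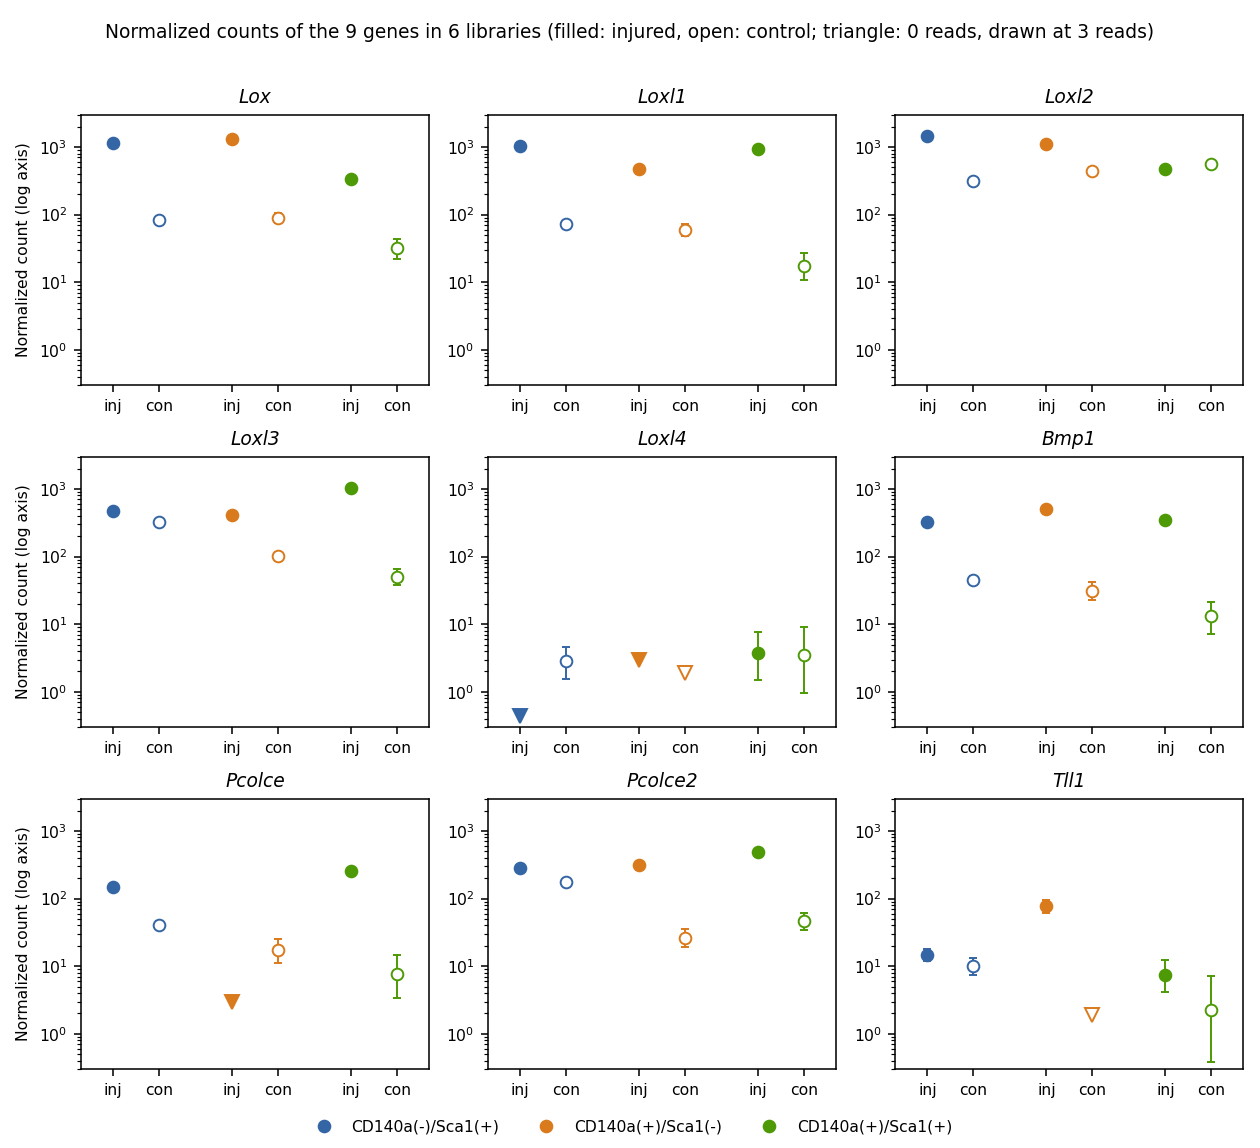
Normalized count (y, log axis) of each of the 9 genes in 6 libraries, injured (filled) left of control (open) for each sort. Bars are exact 95% Poisson intervals for counting error only, and a triangle marks a library with 0 reads, drawn at the level of 3 reads. Lox, Loxl1 and Bmp1 stand at 327 or more in all injured libraries and at 89.9 or less in all control libraries.

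Lox encodes the founding member of the family, which cross-links collagen and elastin (chr18:52516067-52529867, minus strand, GRCm38). It had 1141, 1320 and 334 normalized counts in injured cells and 83.2, 89.9 and 31.8 in control cells. The groups did not overlap, and CD140a(+)/Sca1(+) cells were the lowest of the sorts in both states. The ratio of injured to control was 13.7 (95% counting interval 12.5 to 15.1) in CD140a(-)/Sca1(+) cells, 14.7 (12.3 to 17.6) in CD140a(+)/Sca1(-) cells and 10.5 (7.51 to 15.1) in CD140a(+)/Sca1(+) cells, and these intervals overlap. The fitted change was 3.44 ± 0.49 (SE) on the log2 scale (95% interval 2.25 to 4.64, limma adjusted p = 0.26), higher in 3 of 3 sorts. Among control cells, CD140a(-)/Sca1(+) at 83.2 (75.7 to 91.3) and CD140a(+)/Sca1(-) at 89.9 (75.6 to 106) did not differ beyond counting error.

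Loxl1 encodes the member best known for the renewal of elastic fibers (chr9:58287738-58313186, minus strand). It had 1044, 477 and 940 normalized counts in injured cells and 73.5, 59.7 and 17.7 in control cells. Every injured library stood above every control library, and the gap was widest in CD140a(+)/Sca1(+) cells, where the ratio was 53.2 (34.4 to 87.4), against 14.2 (12.8 to 15.8) in CD140a(-)/Sca1(+) and 7.98 (6.38 to 10.1) in CD140a(+)/Sca1(-) cells. The control value of CD140a(+)/Sca1(+) cells rests on 20 reads and on the cells with the lowest sort enrichment in the study. Loxl1 changed by 3.83 ± 0.61 (95% interval 2.35 to 5.31, limma adjusted p = 0.29), higher in 3 of 3 sorts.

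Loxl2 encodes an oxidase of the scavenger receptor subgroup that acts on basement membrane collagen IV (chr14:69609068-69695834, plus strand). Injured cells had 1451, 1125 and 468 normalized counts, against 319, 441 and 569 in control cells. The groups overlapped, because Loxl2 was higher after injury in both other sorts and lower in CD140a(+)/Sca1(+) cells. The ratios were 4.55 (4.32 to 4.79), 2.55 (2.32 to 2.81) and 0.822 (0.742 to 0.911). Over the 3 sorts the change of 1.07 ± 0.62 did not pass the test (limma adjusted p = 0.68, 95% interval -0.46 to 2.59). Loxl2 was the only one of the 5 lysyl oxidase genes with over 300 normalized counts in every library.

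Loxl3, of the same subgroup, whose loss causes cleft palate in mice, lies at chr6:83034173-83052562 on the plus strand. It had 475, 414 and 1046 normalized counts in injured cells and 328, 101 and 50.3 in control cells. The groups did not overlap, but the ratios were far apart, at 1.45 (1.37 to 1.53), 4.11 (3.41 to 4.96) and 20.8 (16.0 to 27.5). The fit gave a change of 2.18 ± 0.76 (95% interval 0.33 to 4.04, limma adjusted p = 0.57). Without the CD140a(+)/Sca1(+) pair the change was 1.22 and no longer passed the test. The gene Htra2, on the opposite strand, covers 1297 bases at the 3' end of Loxl3, the strand setting of the counting is not given in the sources used here, and Htra2 itself was listed at 0 to 2.75 normalized counts.

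Loxl4, the remaining family member (chr19:42593982-42612813, minus strand), was near the limit of detection. It had 0, 0 and 3.71 normalized counts in injured cells and 2.81, 0 and 3.53 in control cells. In CD140a(-)/Sca1(+) cells it was at least 6.41-fold lower after injury, with the injured library set at 3 reads, and the counting intervals, 0 to 0.539 in injured and 1.57 to 4.64 in control cells, did not meet. Over the 3 sorts the fitted change of -0.32 ± 0.51 did not pass the test (limma adjusted p = 0.83) and lay close to the median of all genes.

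**Figure D2:**
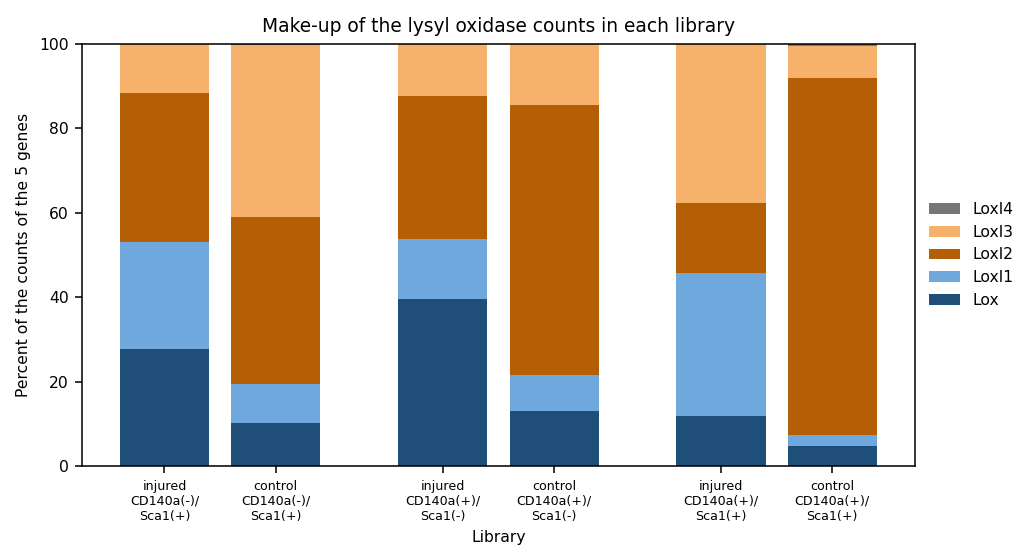
Share of the summed normalized counts of Lox, Loxl1, Loxl2, Loxl3 and Loxl4 (y, percent) that each gene took in each library, injured left of control for each sort. Lox and Loxl1 together (blue) took 45.6% to 53.9% in injured libraries and 7.35% to 21.6% in control libraries.

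The make-up of the family's counts is described here with no test, because the split into Lox and Loxl1 against the rest was chosen with these values in view. Lox and Loxl1, whose products both carry a propeptide, together made up 53.2%, 53.9% and 45.6% of the lysyl oxidase counts in injured cells, against 19.4%, 21.6% and 7.35% in control cells. Their mean share was 50.9% ± 4.56 in injured and 16.1% ± 7.69 in control cells (SD, n = 3 sorts each), and the groups did not overlap. Loxl2 alone made up 35.3%, 33.7% and 16.8% in injured cells and 39.6%, 63.8% and 84.6% in control cells. Its share was lower after injury in each sort, and the gap was smallest in CD140a(-)/Sca1(+) cells. Loxl3 took its highest shares in injured CD140a(+)/Sca1(+) cells, at 37.5% (95% Wilson interval 36.2 to 38.8), and in control CD140a(-)/Sca1(+) cells, at 40.7% (39.2 to 42.1). A share is taken within a library, so scaling between libraries cannot move it.

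Bmp1, the C-proteinase (chr14:70474558-70520234, minus strand), had 327, 514 and 343 normalized counts in injured cells and 44.8, 31.3 and 13.0 in control cells. The lowest injured library stood far above the highest control library. The ratio was 7.30 (6.38 to 8.37) in CD140a(-)/Sca1(+), 16.4 (12.2 to 22.5) in CD140a(+)/Sca1(-) and 26.3 (15.8 to 47.5) in CD140a(+)/Sca1(+) cells. The change was 3.38 ± 0.53 (95% interval 2.10 to 4.67, limma adjusted p = 0.29), higher in 3 of 3 sorts. Among injured cells, CD140a(-)/Sca1(+) at 327 (314 to 341) and CD140a(+)/Sca1(+) at 343 (317 to 370) did not differ beyond counting error.

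Tll1, the tolloid-like relative (chr8:64014931-64206271, minus strand), was low. It had 14.5, 77.6 and 7.47 normalized counts in injured cells and 10.0, 0 and 2.25 in control cells. Most of its counts were in injured CD140a(+)/Sca1(-) cells, where it was at least 40.3-fold higher than in the control cells of that sort, with the control library set at 3 reads. In CD140a(-)/Sca1(+) cells the ratio was 1.45 (1.03 to 2.07). The groups overlapped, and the fitted change of 1.63 ± 0.81 did not pass the test (limma adjusted p = 0.65, 95% interval -0.34 to 3.60).

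Of the enhancers, Pcolce2 rose and Pcolce did not pass the test. Pcolce2 (chr9:95637601-95698096, plus strand) had 287, 313 and 487 normalized counts in injured cells and 176, 26.3 and 45.9 in control cells. The groups did not overlap. Its ratios were 1.63 (1.51 to 1.77), 11.9 (8.57 to 16.9) and 10.6 (8.02 to 14.3). The smallest ratio was in the sort with the highest control count, which is also the divisor of the ratio. The change was 2.31 ± 0.67 (95% interval 0.69 to 3.93, limma adjusted p = 0.49). Without the CD140a(+)/Sca1(+) pair it was 1.90 and did not pass the test.

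Pcolce, the other enhancer (chr5:137605103-137613784, minus strand), had 149, 0 and 251 normalized counts in injured cells and 41.2, 17.1 and 7.54 in control cells. It was higher after injury in both Sca1(+) sorts, with ratios of 3.61 (3.12 to 4.20) and 33.3 (17.1 to 75.2), and was at 0 in the injured CD140a(+)/Sca1(-) library. There it was at least 5.82-fold lower than in control cells, with 3 reads as the level of the injured library. The fitted change was 1.10 ± 1.13 (limma adjusted p = 0.75, 95% interval -1.65 to 3.85). Without that library it was 2.77 and passed the test. In that library 17.6% of genes well expressed in all others were also at 0, and the part of this in the value of Pcolce was not tested.

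**Figure D3:**
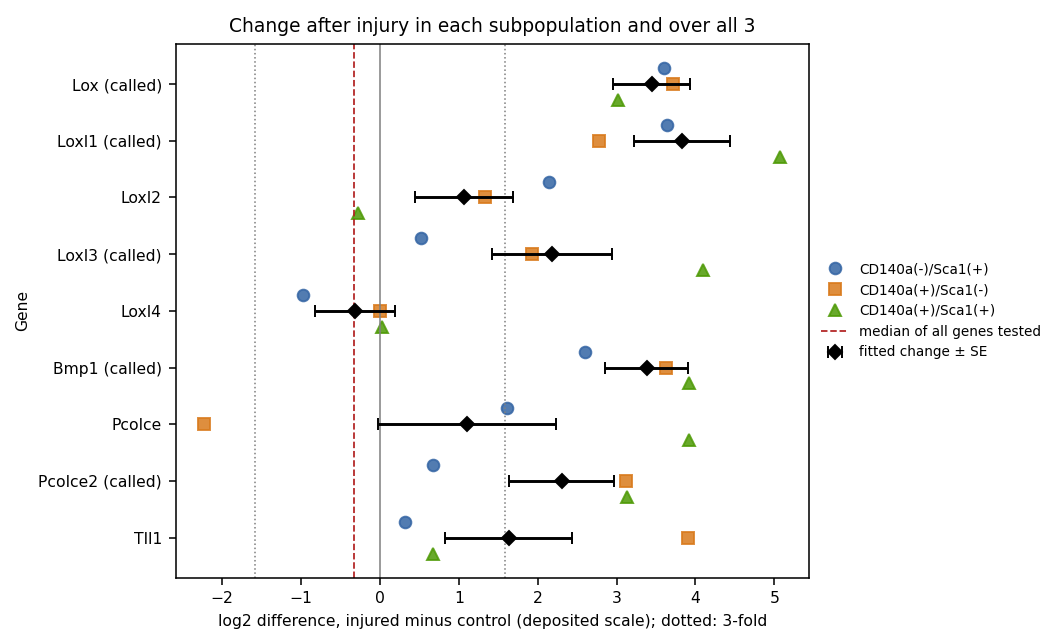
Difference of injured and control (x, log2 of the deposited scale) for each of the 9 genes in each sort, with the fitted change over the 3 sorts (black, ± SE). Dotted lines mark 3-fold and the dashed line the median of all genes, -0.33. Lox, Loxl1 and Bmp1 lie past 3-fold in every sort, and Pcolce lies on both sides of 0.

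Within a sort, 1 injured library is set against 1 control library, with no test. The 3-fold limit was read on the deposited log2 scale, on which the difference of Loxl4 in CD140a(-)/Sca1(+) cells, -0.98, lies inside it. In CD140a(-)/Sca1(+) cells 5 of the 9 genes were at least 3-fold higher after injury (Lox, Loxl1, Loxl2, Bmp1 and Pcolce), against 1.97% of all genes. In CD140a(+)/Sca1(-) cells 6 genes were (Lox, Loxl1, Loxl3, Bmp1, Pcolce2 and Tll1), against 8.31%, and 1 gene, Pcolce, was at least 3-fold lower, against 29.4% of all genes. For this sort the counts over all genes depend on the scaling: 1291 were higher and 4570 lower, against 7085 and 702 with library medians set equal, 1805 and 2027 with quantile normalization and 448 and 6156 with 75th percentile scaling. In CD140a(+)/Sca1(+) cells 6 genes were higher (Lox, Loxl1, Loxl3, Bmp1, Pcolce and Pcolce2), against 10.4%. Lox, Loxl1 and Bmp1 were at least 3-fold higher in each of the 3 pairs, which held for 0.605% of all genes. The largest ratio lay beyond the counting intervals of the other sorts for Loxl2, in CD140a(-)/Sca1(+) cells, and for Loxl1, Loxl3 and Pcolce, in CD140a(+)/Sca1(+) cells. For Lox, Bmp1 and Pcolce2 the highest ratios had overlapping intervals. Whether the change of a gene differs between sorts could not be tested with 1 library a group.

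Each sort was also set against the mean of the other 2 over both states. None of the 9 genes passed the test for CD140a(-)/Sca1(+) (1.61% of all genes did), for CD140a(+)/Sca1(-) (4.38%) or for CD140a(+)/Sca1(+) (1.79%). At an unadjusted limma p under 0.05 there was 1 gene, Lox in CD140a(+)/Sca1(+) cells, which was lower by 1.52 on the log2 scale. Its change of -1.52 ± 0.52 (limma adjusted p = 0.99) was just under 3-fold. Pcolce in CD140a(+)/Sca1(-) cells had a difference of -2.62 ± 1.20 (95% interval -5.54 to 0.30) that rests on the library at 0.

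Enzyme counts were also read against their substrate. The 9 fibrillar procollagen chains summed to 68997, 56577 and 46791 normalized counts in injured cells, against 3373, 5428 and 3394 in control cells. Per 1000 of these counts, Lox had 16.5, 23.3 and 7.13 in injured and 24.7, 16.6 and 9.36 in control cells, and the groups overlapped. Bmp1 had 4.74, 9.08 and 7.33 per 1000 in injured and 13.3, 5.77 and 3.84 in control cells, and also overlapped. Loxl1 likewise overlapped, at 15.1, 8.43 and 20.1 in injured and 21.8, 11.0 and 5.20 in control cells. Loxl2 differed from these, with 21.0, 19.9 and 10.0 per 1000 procollagen counts in injured cells and 94.6, 81.3 and 168 in control cells. The procollagen sum itself was many times higher after injury in every sort, so any gene that rose less has a lower ratio. How many of all genes would separate the states in this way was not counted. The groups of Loxl2 did not overlap, at a mean of 17.0 ± 6.07 in injured and 115 ± 46.6 in control cells (SD, n = 3 sorts each). A two-sided exact permutation test gave p = 0.1, and 0.7 after Benjamini-Hochberg adjustment over the 7 genes compared. That test shuffled libraries freely and left out the pairing by sort, and 0.1 is the smallest p it can give with 3 libraries a state. For Lox the same exact test gave p = 0.7, for Loxl1 p = 0.8 and for Bmp1 p = 0.9, which does not show that the ratios were alike. Loxl3 (p = 0.3), Pcolce (p = 0.4) and Pcolce2 (p = 0.3), in the same exact permutation test, had overlapping groups too, with their highest control ratios in CD140a(-)/Sca1(+) cells.

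**Figure D4:**
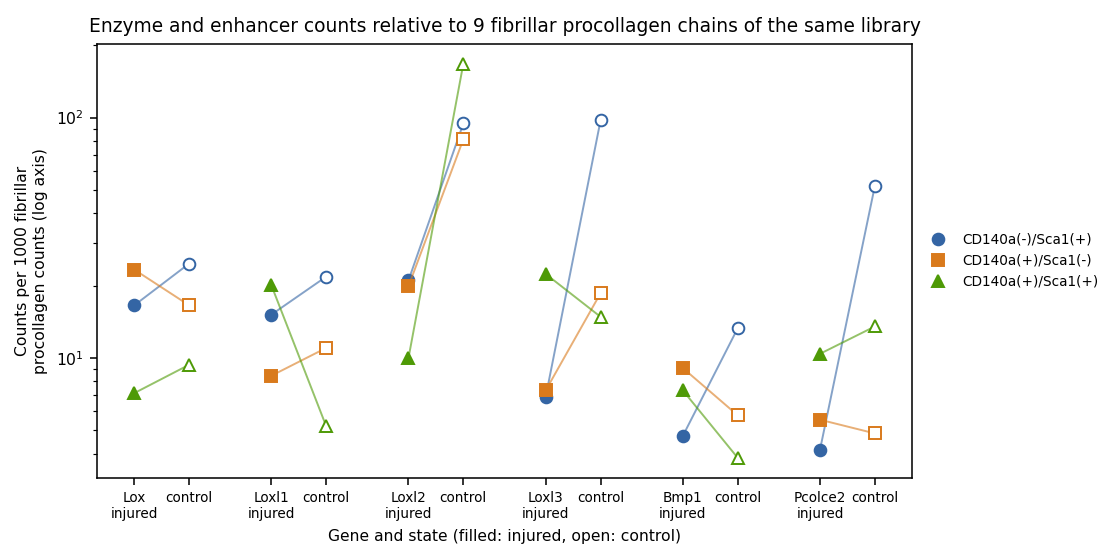
Normalized counts of 6 genes per 1000 counts of 9 fibrillar procollagen chains of the same library (y, log axis), injured (filled) left of control (open), a line for each sort. Loxl2 is at 10.0 to 21.0 in injured and 81.3 to 168 in control libraries, while Lox, Loxl1 and Bmp1 overlap between the states.

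The other genes of the pathway were read from the same limma fit, in which 2.3% of all genes tested rose and 3.46% fell. Of the 9 fibrillar chains, the substrates of BMP1, 6 rose and 0 fell, with a median change of 3.71 on the log2 scale. Those that rose most were Col3a1 (4.62 ± 0.53), Col5a1 (4.42 ± 0.50), Col5a3 (3.97 ± 0.62) and Col5a2 (3.90 ± 0.48). Of the other procollagen proteinases, 4 of 6 passed the filter on low values and 1 rose, Adamts2, which removes the N-terminal extension (2.40 ± 0.51). Of 8 genes for the enzymes that hydroxylate collagen lysines, their chaperones and the galactosyltransferases that act on hydroxylysine, 2 rose, the galactosyltransferase Colgalt1 (1.65 ± 0.61) and the lysyl hydroxylase Plod3 (1.64 ± 0.54). Among elastic fiber genes, 3 of 10 rose, Eln (3.56 ± 0.58), which encodes elastin, a substrate of lysyl oxidases, Fbn1 (3.25 ± 0.53) and Mfap5 (2.26 ± 0.79). Among matrix scaffold genes, some of whose products bind BMP1 or lysyl oxidases, 3 of 6 rose, Postn (4.45 ± 0.49), Fn1 (2.64 ± 0.48) and Lum (2.40 ± 0.52). Other substrates of BMP1-like proteinases had 12 of 15 genes past the filter and 5 that rose, among them Bgn (3.58 ± 0.56), Angptl2 (3.49 ± 0.55), Prelp (2.73 ± 0.71) and Ogn (2.21 ± 0.55). Of the copper delivery genes 7 of 8 were tested and 1 rose, Steap3 (1.70 ± 0.53), a metalloreductase. No gene of these 7 lists fell, against 3.46% of all genes.

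**Figure D5:**
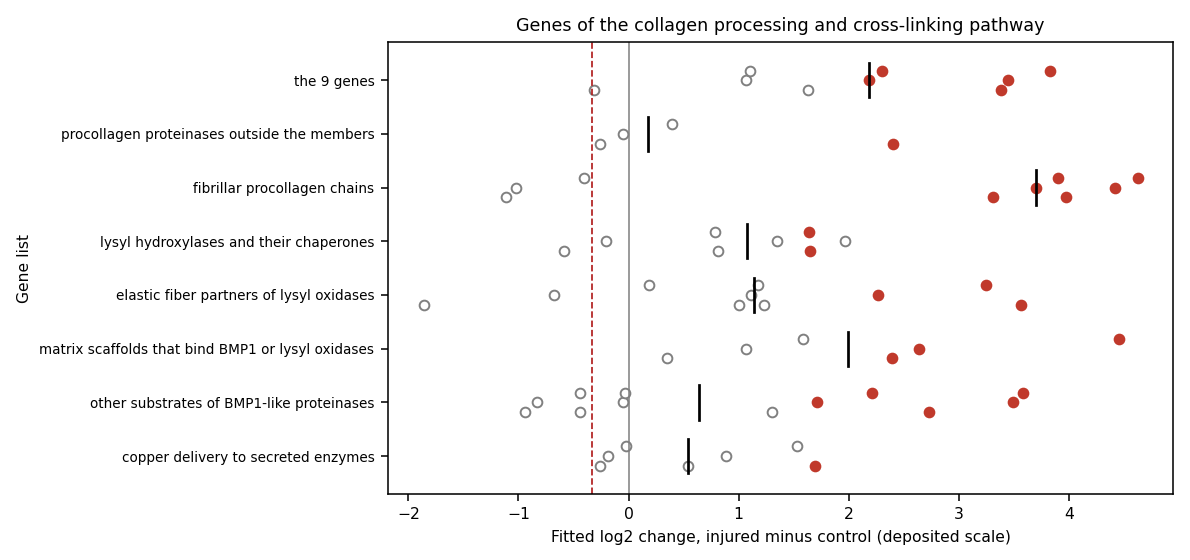
Fitted change, injured minus control (x, log2 of the deposited scale), of each tested gene in 8 lists, filled where it passed the threshold, with the list's median as a bar and the median of all genes, -0.33, dashed. Filled points lie on the right only, and the medians run between 0.18 for other procollagen proteinases and 3.71 for fibrillar chains.

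Patterns over the 6 libraries were compared by the root mean square difference of log2 values after each gene's mean was removed, among 4549 genes with reads in every library and a mean of at least 50 normalized counts. Nearest to Bmp1 were Thbs2, at 0.15, Sdc1, Ccn4 and Bgn, and nearest to Lox were Col8a1, at 0.40, Rnase4 and Col6a1. Nearest to Loxl1 was Col3a1, at 0.46, followed by Tnc and Fbn1. The nearest genes to Loxl3 were Pdpn, at 0.20, Denr and Hmga2, and those to Pcolce2 were Pld3, at 0.31, Hmga2 and Prrx1. Loxl2 was nearest to Wdcp, at 0.16, and Pbld1. Among the genes of the set themselves, Loxl3 and Pcolce2 were the closest pair, at 0.48, followed by Lox and Bmp1 at 0.57, and Loxl1 and Loxl2 were the farthest apart, at 1.69. All 6 libraries are shared by these values, so they are a description.

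Markers of cell types were read from the same limma fit, in which 2.3% of all genes tested rose and 3.46% fell. Endothelial markers summed to 86.7, 10.4 and 202 normalized counts in injured cells and 1518, 436 and 2515 in control cells, and 7 of 10 fell. Leukocyte markers summed to 389, 621 and 249 in injured and 537, 180 and 91.5 in control cells, and 1 of 10, Lyz2, rose. Tendon markers summed to 744, 1882 and 1603 in injured and 197, 878 and 128 in control cells, with 2 of 7 tested, Tnc and Thbs4, higher by the test. Mkx (0.964), Fmod (0.353), Tnmd (0.296), Kera (0.225) and Comp (-0.275) did not pass. In CD140a(+)/Sca1(+) cells Tnc had 1082 counts against 4.44 and Thbs4 398 against 51.2, while Tnmd had 21.2 against 20.3. Markers of fibro-adipogenic progenitors, the collagen-making stromal cells of muscle, summed to 10144, 5245 and 9752 in injured and 10859, 3749 and 972 in control cells, and 3 of 10, Pdgfra, Dpt and Lum, rose. Pericyte and smooth muscle markers summed to 509, 1222 and 1178 in injured and 641, 1249 and 998 in control cells. Of these, 1 of 10 rose, Cspg4 (1.84), and 3 fell, Rgs5 (-4.47), Myh11 (-2.80) and Notch3 (-1.715), so the sums hide opposite changes. Rgs5 had 8.92, 0 and 6.89 counts in injured and 413, 88.0 and 465 in control cells. Among myogenic markers, 0 of 7 tested passed the limits. In CD140a(+)/Sca1(+) cells the summed progenitor markers differed most between the states. Most of this sum was Ly6a and Pdgfra, which encode the sort markers, and Dcn (3611 against 524). Cd34 (63.8 against 109) and Col15a1 (6.73 against 16.8) were lower after injury there. In this sort Loxl1, Loxl3, Bmp1 and Pcolce had their largest ratios, and Lox and Loxl2 their smallest. For Bmp1 and Lox the counting interval overlapped that of another sort. The part of such shifts in cell make-up in the values of the 9 genes was not tested.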

How the data were processed

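Reads were trimmed (FastX-Toolkit), aligned to the mm10 build of GRCm38 (STAR) and counted by the authors. The table they deposited holds log2 values, which the authors obtained with DESeq2 on its variance stabilized scale, which has a floor of 2.57 for a gene with no read. The scale was inverted in closed form to normalized counts. In each library 56.1% to 64.0% of low values were whole reads within 0.02 reads, so reads were estimated from the step of 1 read, and the count models planned for count data were not run. Poisson and Wilson intervals are at 95%, for counting error alone. A level of 3 reads was 0.439 to 2.94 normalized counts, by library.

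Deposited log2 values were tested in limma 3.58.1 (R 4.3.3) with state and sort as terms, a moderated variance with no trend (degrees of freedom 4.11 prior and 2 residual) and Benjamini-Hochberg adjustment over 15532 genes whose 80th percentile of the linear value was at least 8. All 9 genes passed. The limits of p under 0.05 and 3-fold follow the legend of the study's gene table, while its Results text gives p under 0.01, which was added as an alternative after the data were seen. Identifiers were matched to symbols for 22453 genes with GENCODE M21 and a table of gene names. All 9 genes are named. Of each pathway list, up to 4 genes that passed are named, by size of change. Of pattern neighbors, genes among the 5 nearest are named. The genes and lists were chosen with earlier results of these data known, and the share of Lox and Loxl1 was picked with its values in view. Other settings varied the pseudocount, filter, scaling, variance prior and block, or left out a sort. Flow cytometry and histology were not analysed here. Python 3.11.15 with scipy 1.17.1 was used.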

Additional observations from a re-analysis of the deposited data

Results flagged for a closer look

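Loxl2 differed in direction between sorts: the log2 difference of injured and control was -0.28 in CD140a(+)/Sca1(+) cells, against 2.15 in CD140a(-)/Sca1(+) and 1.33 in CD140a(+)/Sca1(-) cells. Pcolce did so too, with -2.23 in CD140a(+)/Sca1(-) cells, where its injured library was at 0. Its difference was 1.62 in CD140a(-)/Sca1(+) and 3.92 in CD140a(+)/Sca1(+) cells. Both were picked out because 1 sort moved the opposite way to the others. With 1 library a group, the difference between sorts was not tested for either gene.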

How the results depend on the processing

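Lox, Loxl1 and Bmp1 passed the threshold under all 13 alternatives, with log2 changes of 2.83 to 4.17, 3.21 to 4.56 and 2.83 to 4.11. Leaving out the injured CD140a(+)/Sca1(-) library gave the same injury fit as leaving out its pair, so these alternatives are not separate. Of the 9 genes 5 rose, against 8 with library medians set equal, where Loxl2 (1.79), Pcolce (1.83) and Tll1 (2.36) also passed, 3 with a p under 0.01, a limit added after seeing the data, and 3 to 6 when 1 sort or the injured CD140a(+)/Sca1(-) library was left out. In those fits with a sort or library left out, 183 to 456 of all genes rose. Loxl3 missed the threshold with a pseudocount of 1 (2.30), with 0.5 (2.31) and with 75th percentile scaling (1.55). The sign turned for Loxl4 with quantile normalization (0.10), equal medians (0.41) and without CD140a(-)/Sca1(+), with a range of -0.49 to 0.013 when 1 sort was left out. Equal medians shift every gene of a library alike, and relative to the median gene Loxl4 stood at 0.02 both with and without them. The sign turned for Pcolce without CD140a(+)/Sca1(+), with a range of -0.30 to 2.77 when 1 sort was left out. For CD140a(+)/Sca1(-) against the others, 0 genes passed, but 1 did with a filter on normalized counts and with limma-trend (Pcolce), 2 with 75th percentile scaling (Pcolce and Pcolce2) and 1 with equal medians (Lox). For CD140a(+)/Sca1(+), 1 did with equal medians (Lox). Of genes at least 3-fold lower within a sort, CD140a(-)/Sca1(+) had 1 (Loxl4) with either pseudocount, and CD140a(+)/Sca1(-) had 0 with quantile normalization and with equal medians, where Pcolce no longer counted. The cause was not tested.

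Over all genes 357 rose and 537 fell, against 1218 and 178 with equal medians, 171 and 1155 with 75th percentile scaling, 459 and 440 with quantile normalization, 301 and 866 with a pseudocount of 1 and 243 and 907 with 0.5. The median change of all genes was -0.33, 0.39, -0.61, 0.00, -0.58 and -0.73 in the same order. Adjusted p-values under 0.05 in limma were reached by Lox, Loxl1 and Bmp1 with limma-trend and without the CD140a(+)/Sca1(-) pair, and by these and Pcolce2 with equal medians. Injured and control libraries were paired by sort, since the labels give no replicate numbers, and without the sort as a block 5 of the 9 genes also rose. Pcolce and Loxl4 were at 0 in the shallowest library, of injured CD140a(+)/Sca1(-) cells, and Tll1 in the control library of that sort. Loxl4 was also at 0 in the deepest library, of injured CD140a(-)/Sca1(+) cells. Control CD140a(+)/Sca1(+) cells had a depth near the lowest, 2346691 against 2094353 reads, with 33.4% of genes at 0 against 69.1%. The part of depth in the values of these genes was not tested.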
